A study of Homo sapiens with 6 samples.

Results

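YAP1, its paralog WWTR1 (the gene of TAZ), the DNA-binding partners TEAD1 to TEAD4 and the core targets ANKRD1, CYR61, CTGF and AMOTL2 were examined in PC-3 prostate cancer cells resistant to an AKT inhibitor. The 10 genes were picked by gene symbol from 27734 gene rows, with 1 row each, and all 10 passed the filter of a mean FPKM of at least 1 that left 13070 genes tested. FPKM is the fragment count of a gene scaled to mRNA length and to the library's fragment total. The resistant cells (PC-3-GDC-R) were held under GDC-0068, also known as ipatasertib, which inhibits the AKT kinases. The control cells (PC-3-control) were carried alongside with the solvent DMSO. RNA of cells at passages 20 to 30, grown with fetal bovine serum, gave 3 libraries for each group, and where 3 values are given they follow the replicate numbers. The sources used here do not give the dose, whether drug was present at harvest, or whether the resistant line is 1 clone or a pool. Whether a group's libraries are separate cultures is likewise not stated, so the spread between libraries, and any p-value built on it, may be technical.

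YAP and TAZ are transcriptional coactivators that have no DNA-binding domain of their own and reach chromatin mainly through the TEAD factors. The Hippo kinase cascade, in which MST kinases activate LATS kinases, phosphorylates YAP and TAZ, and this holds them in the cytoplasm or marks them for degradation. Their activity is therefore set largely at the protein level, and transcript levels of ANKRD1, CYR61 and CTGF are widely used as its readout in epithelial and cancer cells.

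The transcript levels of the coactivators were similar in both groups, those of TEAD2 and TEAD4 were lower in resistant cells, and those of the 4 core targets were 2.19-fold to 7.41-fold higher. The 10 genes were chosen with earlier results of this same comparison known, so their fold changes are given as a description with no p-value. A gene is said to be called when its Benjamini-Hochberg adjusted p was under 0.05 in edgeR's quasi-likelihood test across all tested genes. By that criterion 4 of the 10 genes were called higher, against 24.5% of all tested genes, and 2 were called lower, against 25.7%. All 4 called higher were at least 2-fold higher, as were 2.10% of all tested genes.

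The start regions of the core targets are shown because TEAD factors bind the letters CATTCC or their complement GGAATG. The windows come from RefSeq on GRCh38.p14, cover 250 bases before and 50 bases after an annotated transcript start, and are printed 5′ to 3′ on the strand of the gene. Capitals mark each match to CATTCC or GGAATG. Of the 10 genes, 7 were matched to at least 1 window, CTGF under its current symbol CCN2, and the genes not matched were CYR61, TEAD1 and TEAD4. The ANKRD1 window lies at chr10:90921038-90921337, the CTGF window at chr6:131951323-131951622 and the downstream of 2 AMOTL2 windows at chr3:134374398-134374697, all on the minus strand.
ANKRD1: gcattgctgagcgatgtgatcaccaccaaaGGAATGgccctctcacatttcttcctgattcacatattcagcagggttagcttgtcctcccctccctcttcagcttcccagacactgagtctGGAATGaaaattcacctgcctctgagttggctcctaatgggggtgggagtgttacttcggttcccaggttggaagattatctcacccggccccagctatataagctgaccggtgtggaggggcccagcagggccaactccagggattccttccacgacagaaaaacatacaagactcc
CTGF: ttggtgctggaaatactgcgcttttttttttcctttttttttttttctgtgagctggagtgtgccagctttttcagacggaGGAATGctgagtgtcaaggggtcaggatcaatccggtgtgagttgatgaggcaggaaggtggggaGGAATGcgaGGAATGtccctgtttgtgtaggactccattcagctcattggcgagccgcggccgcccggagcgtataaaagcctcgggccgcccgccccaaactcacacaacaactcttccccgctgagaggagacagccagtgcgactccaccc
AMOTL2: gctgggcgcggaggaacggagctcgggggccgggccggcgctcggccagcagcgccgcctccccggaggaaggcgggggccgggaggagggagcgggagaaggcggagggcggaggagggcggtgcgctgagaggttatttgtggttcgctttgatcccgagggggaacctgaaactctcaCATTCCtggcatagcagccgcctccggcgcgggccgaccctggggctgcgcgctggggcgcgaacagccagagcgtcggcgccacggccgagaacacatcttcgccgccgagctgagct

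The CTGF window held 3 matches, which began 169, 104 and 95 bases before the start. The ANKRD1 window held 2, which began 220 and 128 bases before the start, and the AMOTL2 window shown held 1, at 69 bases. The upstream AMOTL2 window, at chr3:134375368-134375667 and not printed, held none. At least 1 match was present in 14.0% of 35116 RefSeq start windows of this length, and 3 or more in 0.128%. The AP-1 motif TGANTCA, present in 7.71% of windows, was found once in the ANKRD1 window, 195 bases before the start. The CArG box, the binding motif of SRF, was present in 1.29% of windows and in none of the windows of the matched genes. With so low a share and so few windows, none of them for CYR61, this absence is uninformative. Both strands were searched, and in these 3 windows no TEAD match overlapped an AP-1 match. Among the factor genes, the YAP1 window held 1 TEAD match, 162 bases before the start, and the windows of WWTR1, TEAD2 and TEAD3 held none. A match describes the letters in the window and does not show binding.

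Library depth and identity were checked first. Summed gene counts ranged from 35562400 to 44279078 fragments. The 5 epithelial markers (KRT8, KRT18, KRT19, EPCAM and CDH1) summed to 1360 to 1536 FPKM in control and 1272 to 1342 FPKM in resistant libraries. Of these, CDH1 was at 63.8 to 66.2 FPKM in control and 32.9 to 34.7 FPKM in resistant libraries, and KRT19 at 547 to 664 and 480 to 515 FPKM. EPCAM was also lower, at 148 to 177 FPKM in control and 132 to 134 FPKM in resistant libraries. KRT18 went the other way, at 375 to 415 and 420 to 441 FPKM, and KRT8 overlapped, at 197 to 243 and 204 to 220 FPKM. KLK3 was listed at 0 in every library. TMPRSS2, at 4.39 to 5.50 FPKM, was on the list of genes thought silent in this line but was detected. Connective tissue cells also express CTGF and CYR61 strongly. The 7 fibroblast markers summed to 2.70 to 3.48 FPKM in control and 1.81 to 2.08 in resistant libraries, and 6 of them had means below 1 FPKM. The 5 endothelial markers summed to 3.60 to 4.13 and 1.91 to 2.28 FPKM, and the 5 leukocyte markers to 0.122 to 0.135 and 0.176 to 0.319 FPKM. In such bulk RNA, fewer cells expressing a gene and less RNA per cell cannot be told apart. One library, control replicate 1, differed from the others of its group by GC content. Over 12503 genes, which are not independent replicates, its log2 deviation from the other control libraries and transcript GC gave a Spearman's rho of -0.75. YAP1, WWTR1, TEAD1 and ANKRD1, whose transcripts have 40.9% to 43.5% GC, had their highest control level in that library. TEAD2, TEAD3 and AMOTL2, with 56.7% to 59.8% GC, had their lowest control level there, but TEAD4, with the highest GC of the 10 genes (60.4%), did not.

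**Figure D1:**
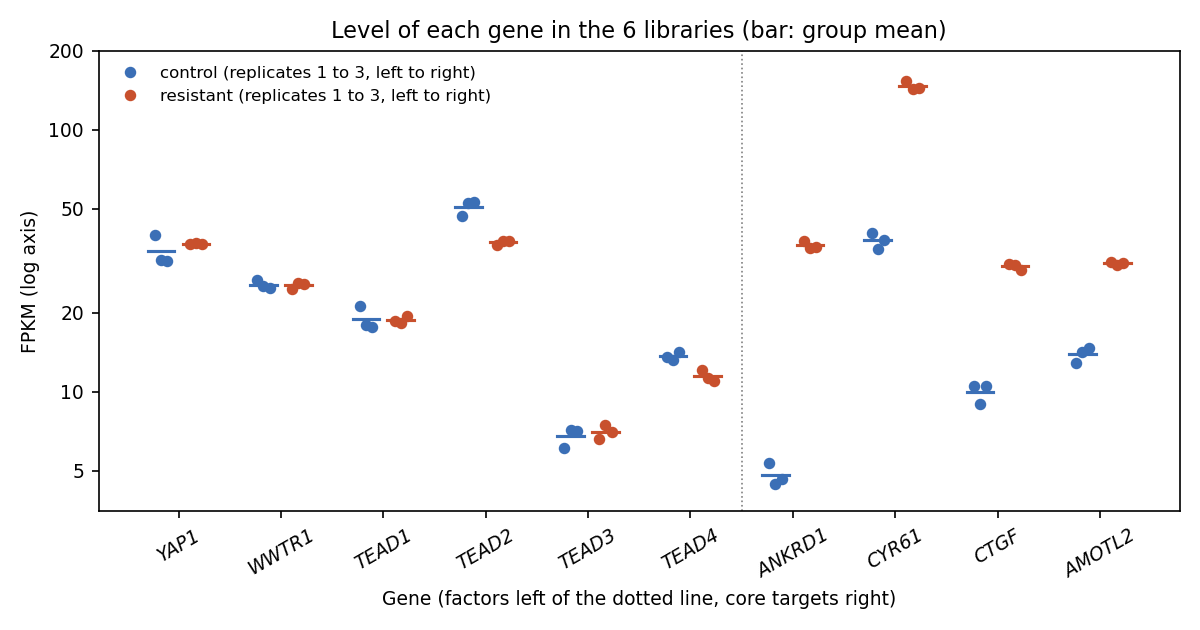
FPKM (log axis) of the 6 factor genes and the 4 core targets in each library, with control in blue, resistant in red and bars at the group means. Blue and red points overlap for YAP1, WWTR1, TEAD1 and TEAD3, lie slightly apart for TEAD2 and TEAD4, and lie far apart for the 4 targets.

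YAP1 encodes the coactivator YAP. Its level was 39.7, 31.7 and 31.6 FPKM in control and 36.6, 36.8 and 36.5 FPKM in resistant libraries. Control replicate 1 was the highest of all 6 libraries and the other control libraries were the lowest, so the groups overlapped. The log2 fold change of resistant over control was 0.07 ± 0.09 (SE, n = 3 per group), with a 95% interval of -0.13 to 0.27, and it did not pass the threshold. Without control replicate 1 it was 0.20 and YAP1 was called higher; with a correction for GC content it was 0.11 and not called. The YAP1 model spans 101981192 to 102104154 of chromosome 11; all gene positions are on hg19 with the first base as 1.

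WWTR1 encodes TAZ, the other coactivator. It was at 26.7, 25.3 and 24.9 FPKM in control and at 24.6, 26.0 and 25.8 FPKM in resistant libraries. The groups overlapped, and the log2 fold change was -0.03 ± 0.05 (95% interval -0.14 to 0.09), which did not pass and turned positive with the GC correction (0.04). Its model on chromosome 3 (149235016 to 149442575) overlaps the antisense gene WWTR1-AS1, to which 36 to 61 fragments per library were assigned, against 4740 to 6237 for WWTR1. Per mRNA length, YAP1 made up 57.1% ± 2.28 of the summed YAP1 and WWTR1 FPKM in control and 59.0% ± 0.688 in resistant cells (SD, n = 3 each). This difference was smaller than the control SD, which rests largely on control replicate 1. The shares were 59.8%, 55.6% and 56.0% in control and 59.8%, 58.6% and 58.6% in resistant libraries. Without control replicate 1 the control mean was 55.8%, below every resistant library.

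TEAD2 was the most abundant TEAD gene in both groups and was lower in resistant cells. It was at 47.0, 52.5 and 52.8 FPKM in control against 36.3, 37.6 and 37.5 FPKM in resistant libraries. Every resistant library was below every control library, although the control library nearest to them was replicate 1. The log2 fold change was -0.47 ± 0.05 (95% interval -0.59 to -0.35), a level 0.722 times that of control, and TEAD2 was called lower in all 17 settings tried, with values of -0.53 to -0.43. The gene lies on chromosome 19 at 49843853 to 49865714, and its end overlaps that of CD37 on the opposite strand, to which 90 to 117 fragments per library were assigned against 2847 to 4737 for TEAD2.

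TEAD4 was also lower in resistant cells, by less. It was at 13.6, 13.2 and 14.1 FPKM in control and at 12.1, 11.2 and 11.0 FPKM in resistant libraries. The groups did not overlap, and the log2 fold change of -0.27 ± 0.06 (95% interval -0.42 to -0.12) was called lower in all 17 settings, between -0.32 and -0.23. TEAD4 is on chromosome 12 at 3068478 to 3149842.

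TEAD1 and TEAD3 overlapped between the groups. TEAD1 (chromosome 11, 12695969 to 12966284) was at 21.3, 17.9 and 17.7 FPKM in control and at 18.6, 18.3 and 19.4 FPKM in resistant libraries. Its log2 fold change was -0.03 ± 0.08 (95% interval -0.21 to 0.14) and changed sign without control replicate 1 (0.07), with no call in either fit. TEAD3 (chromosome 6, 35441374 to 35464861), the least abundant TEAD gene, was at 6.09, 7.12 and 7.05 FPKM in control and at 6.60, 7.47 and 7.02 FPKM in resistant libraries. Its log2 fold change was 0.04 ± 0.08 (95% interval -0.15 to 0.22), was -0.02 without control replicate 1, and was called in none of the 17 settings. As fold changes, the intervals of YAP1, WWTR1, TEAD1 and TEAD3 together reached from 0.867 (TEAD1) to 1.21 (YAP1). That of WWTR1 was narrower, at 0.906 to 1.06. For each of these 4 genes, differences within its own interval were not resolved.

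Summed over the family, TEAD RNA was lower in resistant cells, at 73.7 to 74.9 FPKM against 87.9 to 91.7 FPKM in control. The shares of the family moved by a few points. TEAD2 made up 53.4%, 57.9% and 57.6% of summed TEAD FPKM in the control libraries and 49.3%, 50.4% and 50.04% in the resistant ones. TEAD1 made up 19.3% to 24.2% in control and 24.6% to 25.9% in resistant libraries, with its highest control share in replicate 1. TEAD3 made up 6.93% to 7.85% and 8.96% to 10.01%, and TEAD4 made up 14.5% to 15.5% and 14.7% to 16.5%. TEAD2 thus remained the leading TEAD transcript per length in every library, while TEAD1, whose mRNA model is 9416 bases long against 2328 for TEAD2, received more fragments than TEAD2 in every library.

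**Figure D2:**
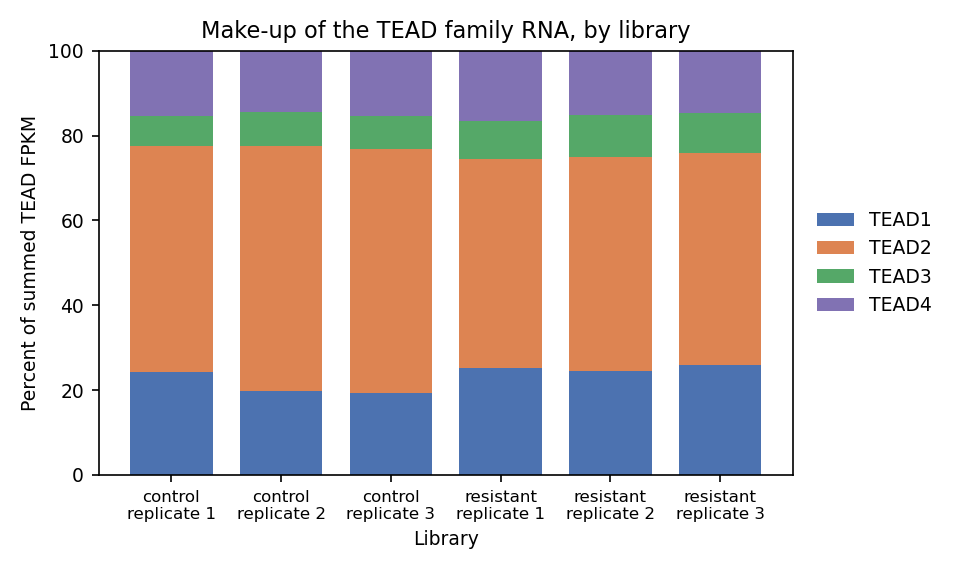
Percent of the summed FPKM of TEAD1 to TEAD4 that each gene made up, by library. The TEAD2 segment is the largest in all 6 bars, at 53.4% to 57.9% in control and 49.3% to 50.4% in resistant libraries.

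ANKRD1, which encodes a cardiac-type ankyrin repeat protein of the nucleus and the sarcomere, differed most among the 10 genes. It had 407, 339 and 324 fragments in control against 2507, 2921 and 2710 in resistant libraries. In FPKM these were 5.37, 4.43 and 4.66 against 37.7, 35.3 and 35.7, so the lowest resistant library was far above the highest control library. The fold was 7.41 (95% interval 6.50 to 8.44; log2 fold change 2.89 ± 0.08), the 10th highest of the 13070 tested genes. It lies on chromosome 10 at 92671857 to 92681032.

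CYR61 and CTGF encode secreted matricellular proteins of the CCN family, now named CCN1 and CCN2. CYR61 (chromosome 1, 86046444 to 86049648) was at 40.4, 35.1 and 37.8 FPKM in control and at 153, 142 and 145 FPKM in resistant libraries. It was the most abundant of the 10 genes in resistant cells, and its fold of 3.83 (95% interval 3.47 to 4.23; log2 fold change 1.94 ± 0.06) ranked 44th highest. CTGF (chromosome 6, 132269317 to 132272518) was at 10.5, 8.98 and 10.5 FPKM in control and at 30.8, 30.4 and 29.1 FPKM in resistant libraries. Its fold was 2.97 (95% interval 2.64 to 3.34; log2 fold change 1.57 ± 0.07), the 92nd highest, and neither gene overlapped between the groups.

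AMOTL2 encodes an angiomotin family protein that binds YAP and restrains it, so that its induction is part of a negative feedback loop. It was at 12.9, 14.2 and 14.7 FPKM in control and at 31.2, 30.5 and 30.9 FPKM in resistant libraries. The groups did not overlap, and the fold was 2.19 (95% interval 2.01 to 2.38; log2 fold change 1.13 ± 0.05), the 210th highest. AMOTL2 lies on chromosome 3 at 134074187 to 134094259. The 4 core targets were called higher in all 17 settings, with lowest log2 fold changes of 2.68 for ANKRD1, 1.87 for CYR61, 1.49 for CTGF and 1.06 for AMOTL2. The models of CYR61, CTGF and TEAD3 lie within the spans of MIR5096 or MIR7641-2, small multi-copy genes drawn across most of a chromosome in the files, which had at most 2 fragments in any library.

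**Figure D3:**
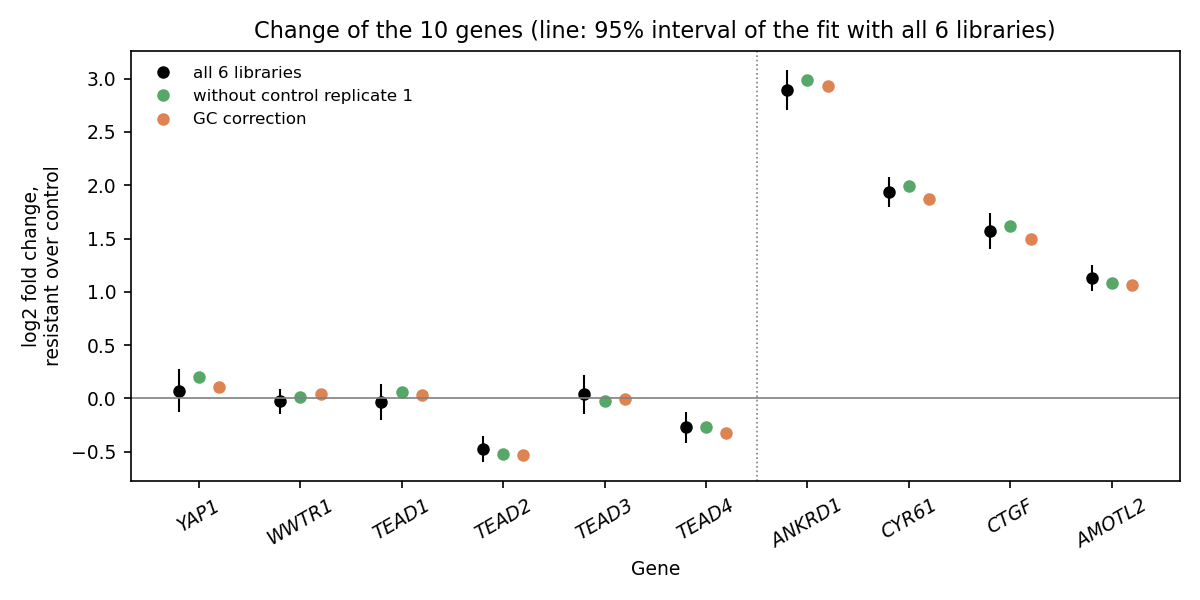
Log2 fold change of resistant over control for each of the 10 genes with all 6 libraries (black, with the 95% interval), without control replicate 1 (green) and with a GC correction (orange). The 4 targets lie above 1 in each of these fits, TEAD2 and TEAD4 lie below 0, and YAP1 moves from 0.07 to 0.20 without control replicate 1.

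The order of the levels changed between the groups. By mean FPKM, control cells ranked TEAD2 (50.8), CYR61 (37.8), YAP1 (34.4), WWTR1 (25.6), TEAD1 (19.0), AMOTL2 (13.9), TEAD4 (13.6), CTGF (10.01), TEAD3 (6.75) and ANKRD1 (4.82). In that order the library ranges of CYR61 and YAP1 and those of AMOTL2 and TEAD4 overlapped, and the other neighbours did not. Resistant cells ranked CYR61 (147), TEAD2 (37.1), YAP1 (36.7), ANKRD1 (36.2), AMOTL2 (30.9), CTGF (30.1), WWTR1 (25.5), TEAD1 (18.8), TEAD4 (11.5) and TEAD3 (7.03). There the ranges of TEAD2, YAP1 and ANKRD1 overlapped, as did those of AMOTL2 and CTGF. ANKRD1 thus moved from the lowest of the 10 genes to the level of YAP1. The summed FPKM of the 4 targets was 62.7 to 69.2 in control and 239 to 252 in resistant libraries, of which ANKRD1 made up 6.89% to 7.76% and 14.8% to 14.9%.

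Other genes of a conserved signature of YAP and TAZ targets mostly rose, by smaller amounts. Of the 18 signature genes besides the 4 core targets, 17 were tested, and 10 of these rose, 2 fell and 5 missed the threshold, against 24.5% higher and 25.7% lower over all tested genes. Their median log2 fold change was 0.32 against -0.01 over all tested genes. FOXF2 was listed at 0 in every library. NT5E, a cell-surface nucleotidase, rose from 9.57 ± 0.659 to 19.4 ± 1.39 FPKM (± SD, n = 3; log2 fold change 1.00 ± 0.08, SE). CRIM1, a transmembrane BMP antagonist, rose from 49.99 ± 1.38 to 84.4 ± 0.542 FPKM (0.74 ± 0.04), and the receptor tyrosine kinase AXL from 141.9 ± 3.6 to 211 ± 4 FPKM (0.55 ± 0.04). The adjusted p of NT5E, CRIM1 and AXL in edgeR's test lay between 3.31e-06 and 1.65e-05. The signature genes that fell, named after their values were seen, were F3, which encodes tissue factor (-1.30 ± 0.16), and ARHGEF17 (-0.65 ± 0.11). On the log2(FPKM + 1) scale their values were -0.82 and -0.35. Without control replicate 1, GADD45A, CCDC80 and TGFB2 were called higher as well. GADD45A was called higher in 8 of the 17 settings, and CCDC80 and TGFB2 also with the GC correction.

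Genes often reported as YAP and TAZ targets outside that signature spread more widely. Of 12 such genes 11 were tested, and 8 of these rose, 1 fell and 2 missed the threshold (24.5% higher and 25.7% lower over all tested genes). The median log2 fold change of the 11 was 0.43. The increase of EDN1 and the decrease of AREG were known from earlier results of these data. THBS1, the matrix glycoprotein thrombospondin 1, was at 169, 169 and 161 FPKM in control and at 790, 777 and 782 FPKM in resistant libraries, a fold of 4.65 (95% interval of the log2 fold change 2.13 to 2.30; edgeR adjusted p = 2.27e-08). EDN1, the endothelin 1 precursor, rose from 1.27 ± 0.268 to 6.45 ± 0.107 FPKM (± SD, n = 3; 2.32 ± 0.13, SE), with a value of 1.72 on the log2(FPKM + 1) scale. AREG, an EGFR ligand, fell by 1.34 on the log2 scale, with a value of -1.03 on the log2(FPKM + 1) scale. The AREG model spans a near-identical gene copy, so its count is uncertain. BIRC5 (survivin) had a log2 fold change of -0.05 ± 0.04 and did not pass with all 6 libraries, but was called lower without control replicate 1 (-0.08) and with the GC correction (-0.12). TNFRSF12A, called higher at 0.13 ± 0.04, lost its call when any library other than control replicate 1 or 3 was left out (0.11 to 0.15), with the replicate block (0.13), with the GC correction (0.08) and with no filter on low values (0.10).

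Upstream in the Hippo pathway, 11 of the 14 scaffold and regulator genes rose, and 12 of the 13 kinase and MOB1 genes did not pass. This split was not set when the list was planned. The list mixes kinases, adaptors and inhibitors, so a rise of its genes has no single direction for the pathway. Of 27 upstream genes, all tested, 12 rose, 0 fell and 15 missed the threshold, against 24.5% higher and 25.7% lower over all tested genes. Their median log2 fold change was 0.16, against -0.01 over all tested genes. With edgeR 2 genes were lower at an unadjusted p under 0.05, and DESeq2 and limma also called 0 lower. Among those not called, STK4 (-0.13 ± 0.05) was called lower without control replicate 1 or 3 (-0.11 and -0.16), and MAP4K3 and MOB1A without control replicate 3 (-0.30 and -0.29). STK4 and MAP4K3 were also called lower with the GC correction (-0.10 and -0.14) and with no filter on low values (-0.16 and -0.26). FRMD6, a FERM-domain scaffold, rose from 39.3 ± 2.93 to 70.5 ± 0.717 FPKM (± SD, n = 3; 0.82 ± 0.06, SE), and the antisense genes FRMD6-AS1 and FRMD6-AS2 overlap its model. AMOTL1, an angiomotin paralog of AMOTL2, rose from 19.4 ± 0.46 to 34.3 ± 0.727 FPKM (0.80 ± 0.04), and WWC3, of the KIBRA family, from 10.7 ± 0.429 to 16.5 ± 0.236 FPKM (0.60 ± 0.05). LATS2, the kinase that phosphorylates YAP and is itself a target gene on the signature list, rose from 4.29 ± 0.0874 to 6.43 ± 0.316 FPKM (0.56 ± 0.06) and was the 1 kinase gene called. The adjusted p of FRMD6, AMOTL1, WWC3 and LATS2 in edgeR's test was 2.06e-06 to 0.000128. LATS1 and STK3, at 0.16 ± 0.08 and 0.17 ± 0.09, did not pass, and were called higher without control replicate 1 (0.24 and 0.28) and with the GC correction (0.24 and 0.29). Of the upstream genes called higher, WWC1 kept its call in 13 of the 17 settings and LIMD1 in 15. SAV1, the scaffold of the MST kinases, had a log2 fold change of 0.04 ± 0.06 and did not pass. Of the 12 upstream genes that rose, LATS2 and PTPN14 also count in the signature list and AJUBA among the other reported targets. AMOT and AMOTL1 also count among the cofactor and paralog genes below, so the counts of these lists are not independent.

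**Figure D4:**
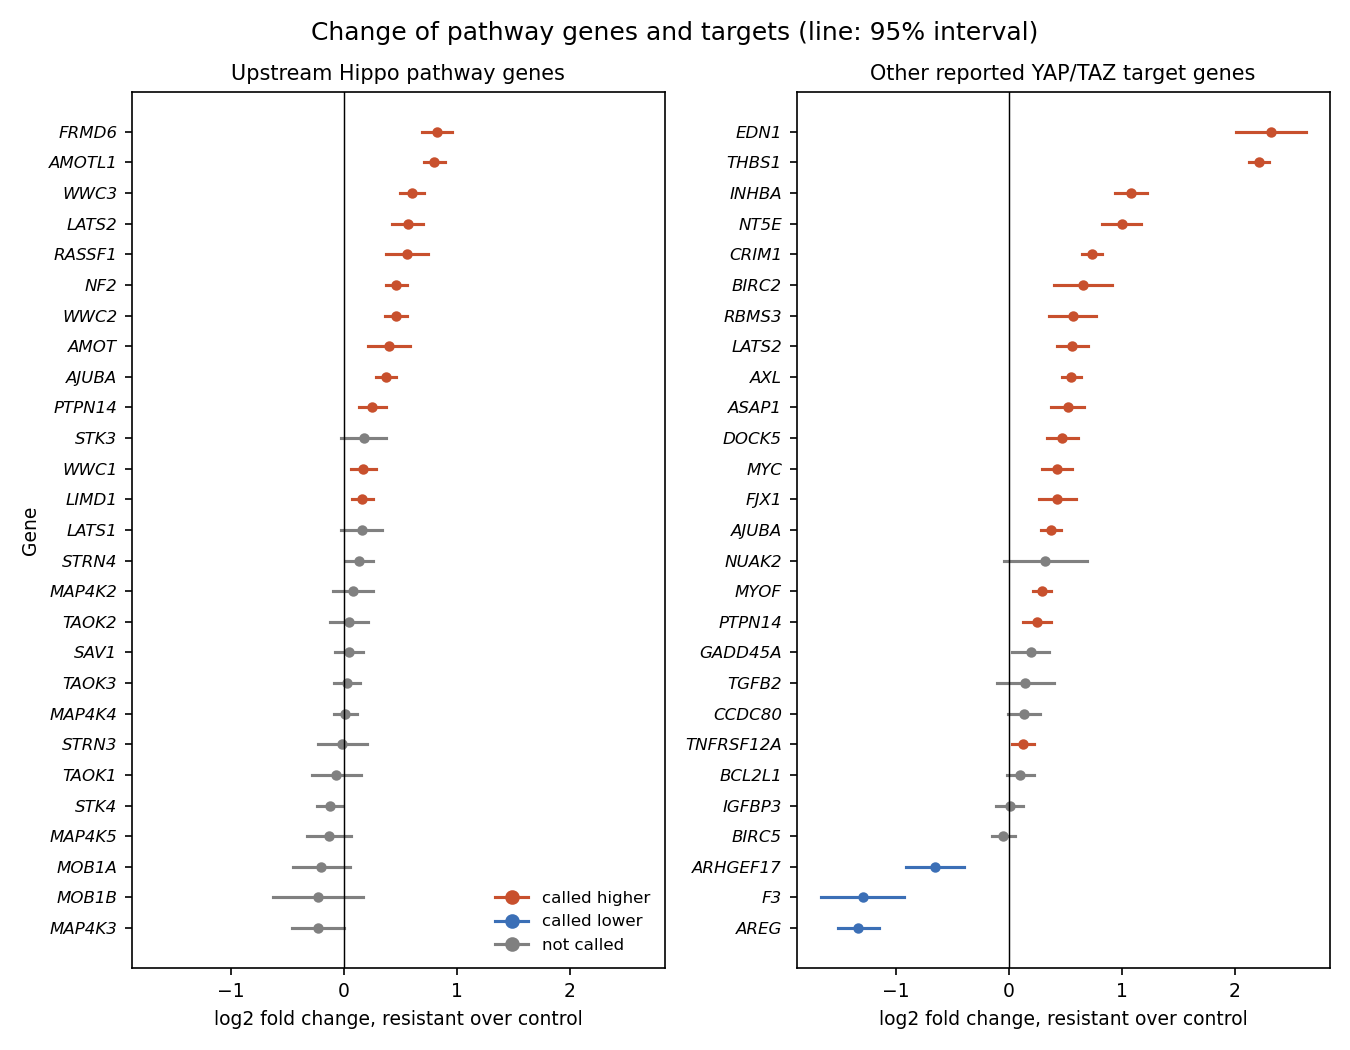
Log2 fold change of resistant over control, with 95% intervals, for upstream Hippo pathway genes (left) and target genes other than the 4 core targets (right, without 1 gene not reported here). Red marks genes called higher, blue genes called lower and grey genes not called; on the left 12 of 27 genes are red and none is blue.

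The VGLL proteins compete with YAP and TAZ for TEAD or act beside them, and the 3 VGLL genes that could be tested rose. VGLL1 was at 1.03, 1.25 and 1.15 FPKM in control and at 4.16, 3.51 and 3.49 FPKM in resistant libraries (log2 fold change 1.68 ± 0.14). Its value was 1.14 on the log2(FPKM + 1) scale. VGLL3 rose from 0.738 ± 0.111 to 1.38 ± 0.0745 FPKM (± SD, n = 3; 0.88 ± 0.11, SE), with a value of 0.45 on the log2(FPKM + 1) scale. VGLL4, a TEAD-binding repressor, rose from 11.04 ± 0.272 to 14.6 ± 0.192 FPKM (0.38 ± 0.05), and its model overlaps ATG7. VGLL2 was listed at 0. The adjusted p of VGLL1, VGLL3 and VGLL4 in edgeR's test was 2.56e-05 to 0.000318.

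Close relatives of the core targets had smaller fold changes or were barely detected. NOV, the CCN family member CCN3, fell from 12.6 ± 0.428 to 10.6 ± 0.715 FPKM (± SD, n = 3; log2 fold change -0.27 ± 0.07, SE; edgeR adjusted p = 0.0109), and its call was lost without resistant replicate 1 or 2 (-0.24 and -0.23). WISP1, WISP2 and WISP3 had 0 to 11 fragments in each library. ANKRD2 and ANKRD23, the muscle ankyrin repeat paralogs of ANKRD1, had means of 0.584 and 0.766 FPKM in control and 0.445 and 1.03 in resistant cells and were below the filter. AMOT, the founding angiomotin gene, rose from 1.76 ± 0.149 to 2.35 ± 0.01 FPKM (± SD, n = 3; 0.40 ± 0.08, SE), with a value of 0.28 on the log2(FPKM + 1) scale. Over the 12 cofactor and paralog genes, 6 were tested, 5 rose and 1 fell, against 24.5% and 25.7% of all tested genes.

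For each core target, the tested genes with the nearest profile were found from the root mean square difference of log2 CPM (fragment counts scaled to library size) over the 6 libraries, after subtracting the control mean. The measure mainly finds genes of like fold change, and says nothing of function or control. ANKRD1 lay nearest to TNFRSF11B, the osteoprotegerin gene (0.14), to KRTAP2-3, a keratin-associated protein (0.19), and to KCNS3, a potassium channel subunit (0.24). CYR61 lay nearest to DLC1 (0.10), FOXD3-AS1 (0.10) and COL8A1, a collagen chain (0.11). CTGF lay nearest to NNMT, nicotinamide N-methyltransferase (0.05), LOC100506548 (0.07) and SAMD4A (0.10), and AMOTL2 to the signal transducer SMAD3 (0.04), CD68 (0.04) and TEP1 (0.04). Within a distance of 0.2 there were 2 genes for ANKRD1, 23 for CYR61, 48 for CTGF and 220 for AMOTL2.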

How the data were processed

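RNA was measured in 3 control and 3 resistant PC-3 libraries. Per the submitters' processing notes, TopHat2 2.0.6 was used with the build hg19; which counter, gene models and strand setting were used is not given in the sources used here. Per the file headers, each library's table holds fragment counts, which are whole numbers and not normalized. It also holds FPKM, which the authors derived from the count, the gene's mRNA size and a fragment total for the library. A further deposited score, FPM, scales the count to that total and served only to recover it: summed gene counts exceeded it by 5.56% to 5.84%.

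Of 27734 rows, 849 were set aside because their symbol (396 symbols) occurs more than once. The 13070 genes that averaged 1 FPKM or more were fitted in edgeR 4.0.16 (TMM normalization, quasi-likelihood test, group as the only term, Benjamini-Hochberg over all tested genes, threshold 0.05). SE and 95% intervals come from that fit. Alternatives were RLE factors, library totals, DESeq2 1.42.0, limma 3.58.1 on log2(FPKM + 0.5, 1 or 0.1), other filters, a replicate block, a GC correction (loess, span 0.3, transcripts of GENCODE 29) and each library left out, 17 settings with the main fit. The fit was tested on simulated data. R was 4.3.3.

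The 10 genes, the lists and the naming rule were chosen with earlier results of these data known. The adjusted p-values printed for list genes come from edgeR's test over all tested genes and are therefore also descriptive. Besides the 10 genes, the rule named up to 4 called genes per list with the largest change and at least 5 FPKM in the higher group, all tested cofactors and paralogs, the 3 nearest profiles of each core target, and the 2 nearest tested genes on each side. Other names were chosen after their values were seen. Lists were described by counts and medians, with no set test. A few genes of the lists count in the totals but are not reported here by name.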

Additional observations from a re-analysis of the deposited data

How the results depend on the processing

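The calls of 9 of the 10 genes held in all 17 settings, and YAP1 was called only without control replicate 1. No pairing of the libraries by replicate number was seen. Deviations from the group means correlated at -0.02, 0.03 and -0.09 for numbers 1, 2 and 3. Control replicate 1 correlated best with resistant replicate 3 (0.13). The control deviations include the GC difference of control replicate 1, so this check cannot show whether the libraries were paired. With the replicate number as a block, 3059 genes were called higher and 3222 lower, against 3200 and 3360 without it. Leaving out 1 library gave 2544 to 4165 higher and 2368 to 4298 lower, with the highest counts without control replicate 1. Small counts moved: upstream Hippo genes called lower were 2 without a filter on low values, 2 with the GC correction and 0 to 3 when 1 library was left out. Among other reported targets 2 were called lower with the GC correction, 0 with a mean FPKM of at least 5 and 1 to 2 with 1 library left out. That filter also left 0 signature genes lower and 2 cofactor or paralog genes higher, because fewer genes were tested, and 0 to 1 of the cofactor and paralog genes were lower with 1 library left out. As a share of fragments not divided by length, TEAD2 made up 34.2% of TEAD counts in control and 28.0% in resistant cells. Intervals cover the spread of 3 libraries per group.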

Other observations

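Of the 8 tested genes nearest to YAP1 and WWTR1, 5 were called higher, although the coactivator genes did not pass. This group of 8 was not set when the neighbours were planned. BIRC3, an inhibitor of apoptosis gene and the next tested gene beyond YAP1 on chromosome 11, rose by 1.90 ± 0.14 on the log2 scale (± SE, 3 libraries a group), and its paralog BIRC2 by 0.65 ± 0.11. BIRC2 also counts among the other reported targets above. On chromosome 3, the neighbours TM4SF1, a tetraspanin-like membrane protein (0.74 ± 0.04), COMMD2 (0.60 ± 0.06) and RNF13 (0.70 ± 0.08) rose around WWTR1. TMEM133 (0.16 ± 0.14) and C11orf70 (0.29 ± 0.17) beside YAP1 and CP (0.14 ± 0.10) beside WWTR1 did not pass. Beside the core targets, RPP30 next to ANKRD1 fell by 0.33 on the log2 scale and HTR7 rose by 0.50, while the 4 nearest tested genes of CYR61 did not pass, nor did 3 of 4 for CTGF and 3 of 4 for AMOTL2. Over the 40 neighbours, 2 on each side of the 10 genes, 11 (27.5%) were called higher, 4 (10.0%) lower and 25 not, against 24.5% higher and 25.7% lower over all tested genes, with a median log2 fold change of 0.07. These calls come from edgeR's quasi-likelihood test over all tested genes.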
